A study of Homo sapiens with 16 samples.

Results

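The 51 genes described here encode the DNA replication machinery and the regulators of the step from G1 into S phase, out of 23459 gene entries measured in 16 RNA-seq libraries of human myeloma cells. They were taken by symbol, and all 51 were found. They comprise 14 origin licensing genes, 6 genes of helicase activation, 20 genes of the replication fork, 4 genes of nucleotide supply, the cyclins CCNE1 and CCNE2 with the transcription factor E2F1, and 4 genes of chromatin assembly behind the fork. The study gave 4 backgrounds a short hairpin RNA (shRNA) against CD28, a shRNA against CD86, a shRNA against Gapdh as the control hairpin, or the empty pLKO.1 vector, called Vec. The backgrounds were the myeloma cell lines KMS18, MM.1s and RPMI8226 and RPMI8226 cells overexpressing Mcl1, which are a single derived line. Each combination had 1 library, so the 3 parental lines served as replicates, n is 3 lines wherever a shRNA is compared, and the p-values cover no spread other than that between lines and libraries. How many hairpins were used per target, and the time of harvest, are not stated in the labels.

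Before S phase, the origin recognition complex (ORC), CDC6 and CDT1 load the ring helicase of MCM2 to MCM7 onto origins, a step called licensing, which geminin (GMNN) blocks after use. In S phase MCM10, CDC45 and the GINS proteins turn the ring into a running helicase, and polymerases, their clamp PCNA, the clamp loader RFC, the single-strand binder RPA, the flap nuclease FEN1 and the ligase LIG1 copy both strands, with precursors from ribonucleotide reductase (RRM1 and RRM2), thymidylate synthase (TYMS) and thymidine kinase (TK1). Cyclin E and the E2F factors drive transcription of most of these genes at the G1/S step, so that in a growing culture their RNA is known to track the share of cells in late G1 and S phase. In bulk RNA, fewer cells in that phase and less RNA per cell cannot be told apart.

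The promoters of MCM3, MCM6, POLA1 and E2F1 are shown because they were picked for carrying binding words of the E2F factors. MCM3 and MCM6 are also among the genes that were lower with CD28 shRNA than with Vec. A link between the words and that difference was not tested. Capitals mark the E2F words TTTCCCGC, TTTGGCGC, TTTGCCGC and TTTCGCGC on either strand, and each run is written 5' to 3' on the strand of the gene from 250 bases before the RefSeq start (GRCh38.p14), ending before any base that the GENCODE 29 annotation places in an exon. The runs lie at chr6:52284882-52284992 on the minus strand for MCM3, chr2:135876444-135876693 on the minus strand for MCM6, chrX:24693668-24693917 on the plus strand for POLA1 and chr20:33686405-33686635 on the minus strand for E2F1.
MCM3: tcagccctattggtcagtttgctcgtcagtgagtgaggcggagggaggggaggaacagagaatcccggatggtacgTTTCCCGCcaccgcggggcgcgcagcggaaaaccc
MCM6: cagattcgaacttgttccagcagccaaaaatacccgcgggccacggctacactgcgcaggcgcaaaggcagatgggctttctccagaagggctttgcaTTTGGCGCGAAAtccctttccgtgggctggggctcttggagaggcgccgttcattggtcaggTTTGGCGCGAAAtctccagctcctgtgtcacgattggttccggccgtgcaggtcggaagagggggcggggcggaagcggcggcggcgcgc
POLA1: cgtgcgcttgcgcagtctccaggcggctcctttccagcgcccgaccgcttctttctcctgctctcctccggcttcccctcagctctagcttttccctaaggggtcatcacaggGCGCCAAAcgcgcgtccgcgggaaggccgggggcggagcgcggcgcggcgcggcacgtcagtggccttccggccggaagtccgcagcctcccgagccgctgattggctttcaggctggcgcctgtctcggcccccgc
E2F1: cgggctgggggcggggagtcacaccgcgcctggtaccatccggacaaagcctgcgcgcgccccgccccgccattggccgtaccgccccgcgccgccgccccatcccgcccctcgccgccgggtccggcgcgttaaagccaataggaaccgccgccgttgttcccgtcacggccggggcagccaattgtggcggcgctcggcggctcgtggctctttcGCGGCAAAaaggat
MCM6 held 4 of the words as 2 overlapping pairs, beginning 152 and 148 and again 90 and 86 bases before the start. In the printed runs MCM3 held 1, 174 bases before the start, POLA1 1 at 137 and E2F1 1 at 33. E2F1 held 2 in all before the start, and the other is not wholly within its printed run. Promoter windows of 300 bases, from 250 before to 50 after the start, were matched for 44 of the 51 genes, and 20 of them (45.5%) held an E2F word, against 3.33% of all 27305 windows. The share was 58.3% of 12 licensing windows and 41.2% of 17 fork windows. A related word, TTTGGCGG, was in 15.9% of the replication windows and 0.681% of all windows. In a list of 29 mitosis genes, 24 of them with a window, the E2F words were in 8.33%, while the word TTTGAA, known as the cell cycle homology region of late cell cycle promoters, was in 70.8%, against 4.55% of the replication windows and 15.4% of all windows. CCAAT, the binding word of NF-Y, was in 59.1% of replication windows, 83.3% of mitosis windows and 35.7% of all windows. ASF1B was one of 2 replication genes with TTTGAA, the other being RRM1, and its window held no E2F word. FEN1 and CCNE1 held none of the words searched in this window. MCM2 held 2 E2F words, with 0 wholly before the start, and MCM4 had no matched window.

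Values are FPKM, fragments per kilobase of exon scaled to library size, as the authors deposited them, and tests used log2(FPKM + 1), a scale that understates changes of low genes such as CCNE2. Reads in genes came to 3914513 to 5900955 per library, and the CD28 shRNA library was the shallowest of the 4 in every background. Every replication gene had at least 19 reads in every library. The knockdown targets checked the labels. CD28 averaged 43.7 ± 11.8 FPKM with CD28 shRNA and 60.7 ± 13.1 with Vec (SD, n = 3), a log2 difference of -0.47 (limma, adjusted p = 0.0295). CD86 had 1.40, 5.28 and 1.10 FPKM with CD86 shRNA (lines in the order MM.1s, RPMI8226, KMS18, kept for all such triplets), against 3.19, 6.92 and 2.48 with Vec, which did not pass (log2 difference -0.62, limma adjusted p = 0.315). GAPDH had 629.5, 402.3 and 132.7 FPKM with Gapdh shRNA against 1187, 1172 and 1241 with Vec, which did not pass either (-1.89, limma adjusted p = 0.9999). Of 6 plasma cell markers the summed level was 614 to 1730 FPKM per library, and those of 6 T cell, 6 myeloid and 6 stromal markers reached at most 7.56, 1.80 and 0.841 FPKM. Exons of 12 of the 51 genes overlap those of another gene over at least 5% of their bases in the GENCODE annotation, among them TYMS (58.2%), POLA2 (53.7%), CCNE2 (47.5%), MCM2 (30.7%), RRM2 (27.9%), MCM7 (7.58%) and FEN1 (7.23%). The labels state no strand setting for the counting, and their values may hold reads of the neighbour.

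**Figure D1:**
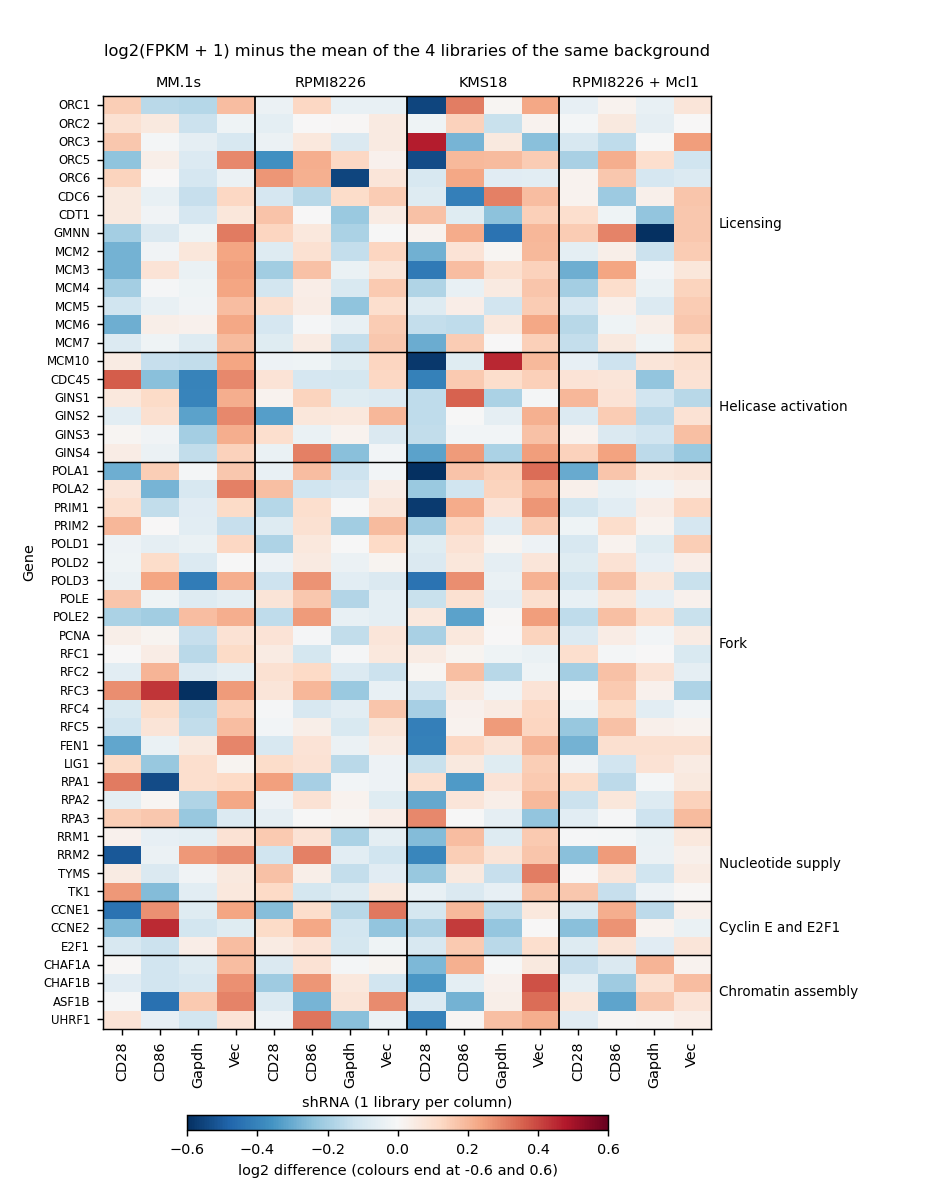
Heat map of the 51 replication genes (rows, by role) in the 16 libraries (columns, by background and shRNA), coloured by log2(FPKM + 1) minus the mean of the 4 libraries of the same background. The Vec columns are mostly red, and the CD28 column of KMS18, where 33 of 51 genes had their lowest value, is mostly blue.

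Within a background, the library with the highest value of a replication gene was most often Vec in MM.1s and KMS18 and most often CD86 shRNA in RPMI8226 and the Mcl1 line. In MM.1s, the Vec library held the highest of the 4 values for 34 of 51 genes (66.7%, against 19.4% of the 11316 genes tested), for 26 in KMS18 (all genes 21.0%), for 18 in RPMI8226 (35.3%, all genes 20.7%) and for 21 in the Mcl1 line (41.2%, all genes 20.4%). The CD86 shRNA library took the highest place for 22 genes in RPMI8226 (43.1%, all genes 29.7%) and 23 in the Mcl1 line (45.1%, all genes 28.8%). The lowest place differed by background. It went to Gapdh shRNA for 24 genes in MM.1s (47.1%, all genes 20.9%) and 22 in RPMI8226 (43.1%, all genes 23.2%). It went to CD28 shRNA for 33 genes in KMS18 (64.7%, all genes 32.7%) and 22 in the Mcl1 line (43.1%, all genes 33.0%). The Gapdh shRNA library held the highest value for 0 of 51 genes in MM.1s and 0 in RPMI8226, against 16.6% and 20.7% of all genes.

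The control hairpin was compared with the empty vector to see how far the replication genes move when neither CD28 nor CD86 is targeted. GAPDH was lower with this hairpin in each line, so loss of GAPDH and carrying a hairpin cannot be told apart. With Gapdh shRNA, 49 of 51 genes had a fitted log2 difference below 0, with a median of -0.17, against 53% of all genes and a median of -0.01. None passed the test, and nor did any other gene (0.0% called in limma, and 0 with voom on reads), but 14 replication genes were lower at an unadjusted p under 0.05 and 0 higher, against 264 (2.33%) lower and 138 (1.22%) higher of 11316 genes. In 30 of 51 genes (58.8%) the value with Gapdh shRNA was below Vec in all 3 parental lines, against 15.0% of all genes, and 26 of the 30 were also below it in the Mcl1 line. MM.1s had a median of -0.20, KMS18 -0.15, RPMI8226 -0.12 and the Mcl1 line -0.07.

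Within that comparison, the licensing genes had a median of -0.20 and 13 of 14 below 0, and helicase activation -0.29 with all 6 below 0. CDT1, the licensing factor that hands the MCM ring to ORC, had the smallest p. It had 21.6, 24.8 and 35.3 FPKM with Gapdh shRNA, against 24.4, 30.1 and 46.7 with Vec. Each line was lower with the hairpin, though the groups overlap because the lines differ in level (log2 difference -0.28 ± 0.08 SE, limma adjusted p = 0.9999). For GMNN, the inhibitor of CDT1, the groups did not overlap. It had 41.3, 39.3 and 39.1 FPKM with Gapdh shRNA, against 52.4, 45 and 61.4 with Vec, and 35.1 against 60.5 in the Mcl1 line (-0.39 ± 0.14, limma adjusted p = 0.9999). GINS2, a subunit of the helicase cofactor GINS, differed by -0.34 ± 0.12, MCM5 by -0.27 ± 0.09 and MCM7 by -0.24 ± 0.08, with the same limma adjusted p. The clamp loader subunit RFC3 had its extreme in 1 library, 4.38 FPKM with Gapdh shRNA in MM.1s against 11.49 with Vec, 11.7 with CD28 shRNA and 13.1 with CD86 shRNA. In the other backgrounds RFC3 had 17.7 to 26.5 FPKM with Gapdh shRNA and 20.2 to 25.0 with Vec. The helicase activation genes were likewise farthest apart in MM.1s, with a median of -0.52 there.

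CD28 shRNA was next compared with Vec, where lowering CD28 and carrying a hairpin cannot be told apart. Against Gapdh shRNA, given below, 0 of 51 genes passed (2.2% of all genes) and the median was 0.01. Of the 6 MCM ring subunits 4 passed the test and MCM5 and MCM7 did not. MCM2, MCM3, MCM4 and MCM6 fell by 0.40, 0.46, 0.35 and 0.39 on the log2 scale, and the flap nuclease FEN1 and the histone chaperone ASF1B by 0.45 and 0.36. These 6 of 51 genes (11.8%) passed the test, all lower, against 2.11% of all genes called lower and 0.716% called higher (2.83% in either direction). Over the 51 genes, 43 had a difference below 0, with a median of -0.19, against 50.6% of all genes and a median of -0.003. In 25 genes (49.0%) the value with CD28 shRNA was below Vec in all 3 lines, against 20.9% of all genes, and in 0 above it in all 3, against 18.8%.

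**Figure D2:**
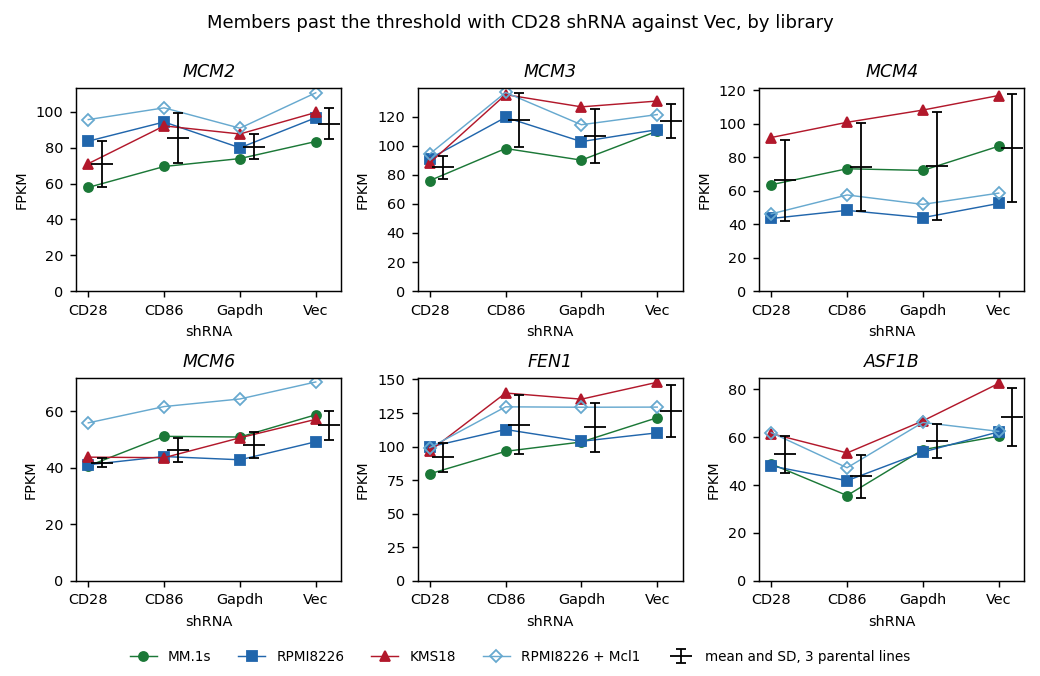
FPKM of the 6 genes that passed the test with CD28 shRNA against Vec, by shRNA (x axis), with 1 point per library joined within a background and the mean and SD of the 3 parental lines in black. For MCM2, MCM3, MCM4, MCM6 and FEN1 the CD28 libraries lie below the Vec libraries of their own background in all 4 backgrounds, and ASF1B is lowest with CD86 shRNA.

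MCM3 had 75.99, 91.1 and 88.2 FPKM with CD28 shRNA, against 110.0, 111.0 and 130.7 with Vec. Every CD28 library was below every Vec library, and the Mcl1 line, outside the test, had 94.4 against 121.4. The difference was -0.46 ± 0.08 (SE, limma adjusted p = 0.0186). MCM6 had 40.6, 41.0 and 43.7 FPKM with CD28 shRNA against 58.7, 49.2 and 57.1 with Vec, with no overlap (-0.39 ± 0.09, limma adjusted p = 0.0429). MCM2 had 57.8, 83.6 and 71.1 FPKM against 83.4, 96.7 and 99.6, lower in each line with overlapping groups (-0.40 ± 0.09, limma adjusted p = 0.0406). For MCM4 the lines were far apart, with 63.5, 43.4 and 91.7 FPKM against 86.5, 52.3 and 116.8, again lower in each (-0.35 ± 0.07, limma adjusted p = 0.0349). MCM5 and MCM7, the remaining subunits, did not pass. MCM7 averaged 130.1 ± 34.7 FPKM with CD28 shRNA and 161.1 ± 35.6 with Vec (-0.32, limma adjusted p = 0.0718).

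The ring can also be read as a whole. The 6 subunits in 4 backgrounds gave 24 comparisons with Vec, from 1 pair of libraries per background. Values were lower in 24 of 24 with CD28 shRNA, in 20 of 24 with CD86 shRNA and in 24 of 24 with Gapdh shRNA. These comparisons share the Vec libraries. Subunits of the same libraries are not replicates, and the Mcl1 line is derived from RPMI8226. Of all genes, 49.2% to 51% were below Vec with CD28 shRNA, by background. The shares were 43.3% to 49.2% with CD86 shRNA and 47.9% to 51.4% with Gapdh shRNA. CD28 shRNA was below Gapdh shRNA in 19 of 24 such comparisons, beside 47.3% to 50.8% of all genes, by background. Summed over MCM2 to MCM7, the level in MM.1s was 381 FPKM with CD28 shRNA, 441 with CD86 shRNA, 433 with Gapdh shRNA and 513 with Vec. With the shRNAs in the same order, the sums were 426, 547, 530 and 580 FPKM for KMS18. RPMI8226 had 474, 535, 467 and 554 FPKM, and the Mcl1 line 550, 653, 598 and 670. CD28 shRNA had the lowest sum in 3 backgrounds and Gapdh shRNA in RPMI8226.

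Upstream of the ring, licensing genes were mixed. ORC5, an origin recognition subunit, had 10.9, 10 and 4.26 FPKM with CD28 shRNA, against 16.2, 13.5 and 7.47 with Vec. It was lower in each line but missed the threshold (-0.54 ± 0.13, limma adjusted p = 0.0507). ORC3 had 11.6, 6.86 and 24.7 FPKM against 9.54, 7.36 and 14.5, higher in 2 of 3 lines, and ORC6 had differences of either sign. CDT1 averaged 34.9 ± 11.9 FPKM with CD28 shRNA and 33.7 ± 11.6 with Vec. Of the 14 licensing genes 4 passed, all of them ring subunits, with a median of -0.23.

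At the fork, FEN1 had 79.7, 99.7 and 96.7 FPKM with CD28 shRNA, against 121.5, 110.2 and 147.9 with Vec. The groups do not overlap (-0.45 ± 0.10, limma adjusted p = 0.0406), and the Mcl1 line had 99.2 against 129.4. It was the 1 fork gene of 20 that passed, and the fork median was -0.15. POLA1, the catalytic subunit of the priming polymerase, also had groups that did not overlap, 8.28, 10.4 and 8.82 FPKM against 11.7, 10.6 and 18.4, and did not pass (-0.49, limma adjusted p = 0.122). The clamp PCNA had 114.3, 132.2 and 60.1 FPKM against 118.7, 131.4 and 75.8, close to equal in MM.1s and RPMI8226. Helicase activation genes were below 0 in 6 of 6 with a median of -0.20 and 0 passing. Nucleotide supply had a median of -0.09 and 0 of 4 passing. RRM2, the regulated subunit of ribonucleotide reductase, had 127.1, 45.7 and 80.5 FPKM against 220.5, 45.7 and 119.0, lower in MM.1s and KMS18 and near equal in RPMI8226 (-0.45 ± 0.14, limma adjusted p = 0.117). TK1 went the other way in MM.1s, with 139.1 FPKM against 121.2, and was at 171.6 against 164.5 in RPMI8226 and 89.4 against 104.8 in KMS18. CCNE1 had 13.2, 2.52 and 25.3 FPKM against 21.8, 4.22 and 28.6, lower in each line (-0.47 ± 0.12, limma adjusted p = 0.0606). E2F1 had 50.9, 35.3 and 45.5 FPKM against 62.1, 33.4 and 52.3. Among the chromatin assembly genes ASF1B, a chaperone that passes new histones on, had 48.8, 48.0 and 61.5 FPKM against 60.5, 62.3 and 82.5 (-0.36 ± 0.08, limma adjusted p = 0.0391). Each line was lower, and the KMS18 value with CD28 shRNA lay above the lowest Vec value. In the Mcl1 line ASF1B had 62.0 against 62.5 FPKM.

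**Figure D3:**
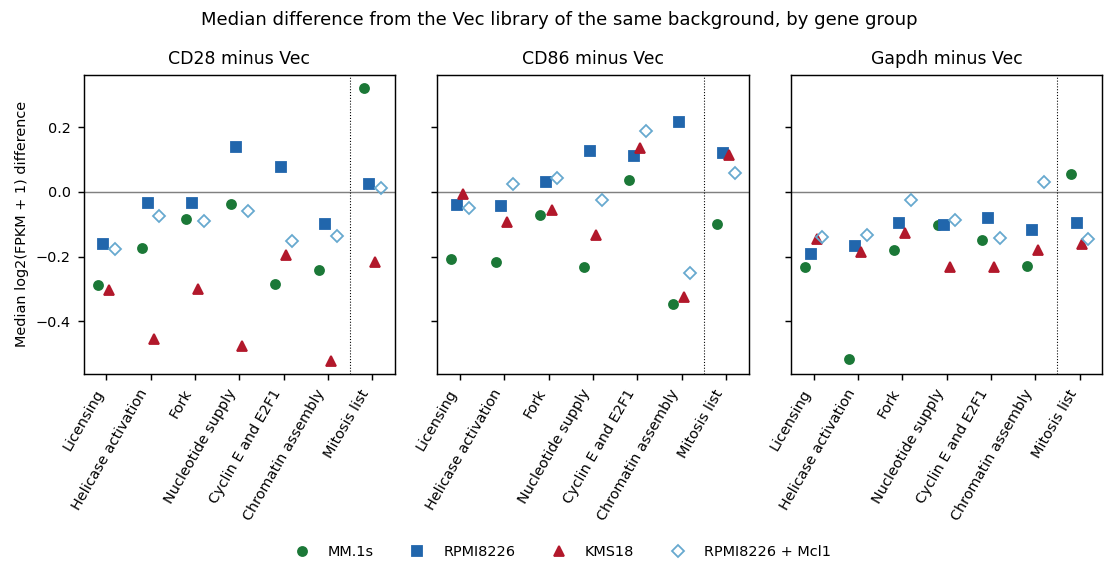
Median log2(FPKM + 1) difference from the Vec library of the same background, by gene group, for CD28, CD86 and Gapdh shRNA (panels), with 1 point per background. With Gapdh shRNA all groups of the 3 parental lines except mitosis in MM.1s lie below 0. With CD28 shRNA KMS18 lies lowest in most groups, and the mitosis list of MM.1s lies at 0.32.

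By line, the median of the 51 genes with CD28 shRNA against Vec was -0.33 in KMS18 with 46 below 0, -0.18 in MM.1s with 39, and -0.04 in RPMI8226 with 31. In the Mcl1 line it was -0.12 with 42 below 0. A difference between the parental lines was not tested, with 1 library per combination. For nucleotide supply the median was -0.48 in KMS18 and 0.14 in RPMI8226. Without MM.1s 0 of the genes passed, without RPMI8226 2 and without KMS18 0. The CD28 shRNA library was the shallowest of each background. With all reads thinned to a common depth, an alternative chosen after seeing the data, 3 passed. These counts, with and without a line, are given without the share of all genes called at the same setting. They do not show whether the replication genes changed apart from other genes. The difference between the Mcl1 line and the parental lines in the CD28 response was tested as an interaction, and 0 of 51 genes passed (1 of 11349 genes in all, 0.00881%). The smallest unadjusted p among them was 0.0482, for ASF1B, and 371 of all genes were under 0.05. The interactions for CD86 and Gapdh shRNA had 0 of 51 passing and 0 of all genes, with 293 and 213 of all genes at an unadjusted p under 0.05 and the smallest among the replication genes at 0.138 and 0.0859.

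CD28 shRNA was also set directly against the control hairpin, whose libraries had less GAPDH RNA. Of 51 genes 0 passed (2.2% of all genes called, 0.486% higher and 1.71% lower), 26 were above 0 and 25 below, and the median was 0.01. At an unadjusted p under 0.05, 2 were higher and 5 lower, beside 7.68% and 8.83% of all genes. With voom on reads 1 passed, lower, a count given without the share of all genes called. CDT1 averaged 34.9 ± 11.9 FPKM with CD28 shRNA and 27.2 ± 7.19 with Gapdh shRNA (0.33 ± 0.08 SE, limma adjusted p = 0.0783). MCM3 averaged 85.1 ± 8.02 and 106.5 ± 18.6 FPKM (-0.31 ± 0.08, limma adjusted p = 0.0908). ORC5 differed by -0.46 ± 0.13 (limma adjusted p = 0.097) and FEN1, whose groups did not overlap, by -0.30 ± 0.10 (limma adjusted p = 0.154). KMS18 had a median of -0.13 over the 51 genes, MM.1s 0.09, RPMI8226 0.07 and the Mcl1 line -0.03, and 36 of 51 were lower with CD28 shRNA in KMS18 and 16 in MM.1s. With CD28 shRNA the summed level of the 51 genes was 85.9 ± 8.43% of the Vec library of the same line, and with Gapdh shRNA 89.1 ± 2.34% (SD, n = 3 lines). For the licensing genes the shares were 82.3 ± 5.67% and 87.0 ± 3.32%.

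CD86 shRNA lowered 1 replication gene. ASF1B had 35.6, 41.8 and 53.4 FPKM with CD86 shRNA, against 60.5, 62.3 and 82.5 with Vec, with no overlap. It fell by 0.64 on the log2 scale (SE 0.08, limma adjusted p = 0.0106), and the Mcl1 line had 47.2 against 62.5. Of all genes 0.627% were called, 0.566% lower and 0.0619% higher. Against Gapdh shRNA, with 54.8, 53.8 and 66.8 FPKM, ASF1B also fell, by 0.43 (SE 0.08, limma adjusted p = 0.0389). It was again the 1 gene called, against 1.13% of all genes (0.946% lower and 0.186% higher). Over the set the median against Vec was -0.06 with 34 of 51 genes below 0, beside a median of 0.02 and 45.6% below 0 over all genes. Against Gapdh shRNA the median was 0.10 with 42 of 51 above 0, beside a median of 0.03 and 43.6% below 0 over all genes. Without any 1 of the 3 lines ASF1B did not pass in either comparison.

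RPA1, the large subunit of the single-strand binder, had 25.8, 27.9 and 17.1 FPKM with CD86 shRNA, against 41.2, 31.4 and 24.4 with Vec. It was lower in each line but did not pass (-0.44 ± 0.11, limma adjusted p = 0.117). CCNE2 had 5.65, 4.23 and 28.4 FPKM against 3.64, 2.79 and 20.96, higher in each line (0.47 ± 0.14, limma adjusted p = 0.178). RFC2, a clamp loader subunit, had 24.9, 35.4 and 30.2 FPKM against 20.6, 29.6 and 26.0 (0.24 ± 0.08, limma adjusted p = 0.255). Against Gapdh shRNA the same 3 genes had differences of -0.41, 0.52 and 0.28, none past the threshold.

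CD86 shRNA and CD28 shRNA differed in 6 replication genes. MCM3 averaged 117.5 ± 18.6 FPKM with CD86 shRNA and 85.1 ± 8.02 with CD28 shRNA, with no overlap (0.45 ± 0.08, limma adjusted p = 0.0101). With CD86 shRNA it had 98.1, 119.5 and 135.1 FPKM, against 110.0, 111.0 and 130.7 with Vec, lower in MM.1s and higher in RPMI8226 and KMS18. ORC5 had 13.4, 15.5 and 7.71 FPKM with CD86 shRNA against 10.9, 10 and 4.26 with CD28 shRNA (0.53 ± 0.13, limma adjusted p = 0.0287). CCNE1 had 22.4, 3.52 and 31.4 FPKM against 13.2, 2.52 and 25.3 (0.46 ± 0.12, limma adjusted p = 0.0352), and CCNE2 5.65, 4.23 and 28.4 against 3.05, 3.83 and 18.2 (0.48 ± 0.14, limma adjusted p = 0.0485). Each was higher in every line. RPA1 was lower with CD86 shRNA, at 25.8, 27.9 and 17.1 FPKM against 47.2, 38.3 and 23.4 (-0.58 ± 0.11, limma adjusted p = 0.0106). ASF1B was also lower with CD86 shRNA, by 0.28 (limma adjusted p = 0.0491). These 4 higher and 2 lower genes (7.84% and 3.92% of 51) stand beside 5.41% and 4.1% of all genes called higher and lower (9.51% in all). Over the set 39 of 51 were above 0 with a median of 0.12, beside a median of 0.03 and 45.7% below 0 over all genes. Without MM.1s 0 passed, without KMS18 0 and without RPMI8226 2, counts given without the share of all genes called at the same setting.

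The authors' deposited table, in which the sign of the differences was found to run as in the comparisons above, holds 8 replication genes lower with CD28 shRNA than with Vec at a false discovery rate under 0.05 (2.7% of its genes were lower). In the authors' deposited table these are ORC5, MCM2, MCM3, MCM4, MCM6, POLA1, FEN1 and RRM2. Its likelihood ratio tests covered 14975 genes, and its name marks Gapdh and RPMI8226_MCL1 as left out. Test, genes and libraries thus differ from those of the fits above, and the counts are not like for like. For CD86 shRNA against Vec the authors' deposited table holds RPA1 and ASF1B, both lower (1.55% of its genes were lower). For CD86 against CD28 shRNA the authors' deposited table holds ORC5, MCM3, POLA1, POLD3 and RRM2 as higher and RPA1 as lower (4.41% of its genes were higher and 5.9% lower).

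Genes next to the module were read from lists of the same pathways. Of 28 other replication genes 1 passed with CD28 shRNA against Vec, where 2.83% of all genes were called. This was DSCC1, a subunit of a clamp loader for sister chromatid cohesion, with 15.3, 6.05 and 6.98 FPKM with CD28 shRNA against 22.1, 10.1 and 14.8 (fell by 0.71). Of 26 other G1/S genes 2 passed, E2F4 and TFDP1, an E2F factor and the dimer partner of E2F, which fell by 0.43 and 0.52. Of 19 other nucleotide synthesis genes 1 passed, the purine enzyme PAICS, which had 61.0, 58.0 and 59.8 FPKM with CD28 shRNA against 108.4, 87.97 and 119.1 with Vec and fell by 0.80 (limma adjusted p = 0.0018). DSCC1, E2F4 and PAICS were also lower with CD28 shRNA than with Gapdh shRNA, by 0.73, 0.42 and 0.61. With CD86 shRNA against Vec 0 of these 73 listed genes passed, and with Gapdh shRNA against Vec 0. At an unadjusted p under 0.05 there were 4 with CD86 shRNA, beside 12.8% of all genes, and 8 with Gapdh shRNA, beside 3.55% of all genes. MYC, a transcription factor that drives growth and nucleotide synthesis genes, had 196, 377 and 210 FPKM with CD28 shRNA against 338, 401 and 353 with Vec (fell by 0.54, limma adjusted p = 0.0497), and differed by 0.01 with Gapdh shRNA.

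The mitosis list did not move with the replication genes in MM.1s. With CD28 shRNA, 39 of 51 replication genes were below Vec there with a median of -0.18, while 28 of 29 mitosis genes were above it with a median of 0.32. In KMS18 both were lower, with medians of -0.33 and -0.22 and 25 of 29 mitosis genes below 0. In RPMI8226 the medians were -0.04 and 0.02, and in the Mcl1 line -0.12 and 0.01. Over the 3 lines 0 of 29 mitosis genes passed, with a median of 0.05. With Gapdh shRNA the mitosis median was -0.07. 

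Between the lines, cyclin E and ribonucleotide reductase genes differed several-fold. Levels are means of the 4 libraries of a line. These libraries are 1 line under 4 vectors and not separate derivations. The p-values between lines therefore cover the spread between libraries only. CCNE1 averaged 27.4 ± 3.19 FPKM in KMS18, 18.7 ± 4.28 in MM.1s and 3.25 ± 0.777 in RPMI8226 (SD, n = 4 libraries), 3 levels with no overlap. KMS18 and MM.1s exceeded RPMI8226 by 2.75 and 2.20 on the log2 scale (SE 0.10 each, limma adjusted p = 1.05e-09 and 8.69e-09). CCNE2 averaged 21.3 ± 4.93 FPKM in KMS18, 3.96 ± 1.15 in MM.1s and 3.496 ± 0.653 in RPMI8226, where the ranges of MM.1s and RPMI8226 overlap and that of KMS18 lies apart (2.30 over RPMI8226, limma adjusted p = 1.38e-08). RRM2 averaged 107 ± 18.1 FPKM in KMS18, 185 ± 43.6 in MM.1s, and 50.1 ± 7.63 in RPMI8226, without overlap. RRM1, the large subunit of the same enzyme, averaged 61.3 ± 8.82, 53.4 ± 2.62 and 26.6 ± 2.93 FPKM in the same order of lines, so that RRM2 exceeded RRM1 by 3.48 ± 0.827-fold in MM.1s, while the ratio was 1.75 ± 0.147 in KMS18 and 1.89 ± 0.285 in RPMI8226. In MM.1s this ratio was 2.34 with CD28 shRNA, 3.44 with CD86 shRNA, 4.25 with Gapdh shRNA and 3.89 with Vec.

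**Figure D4:**
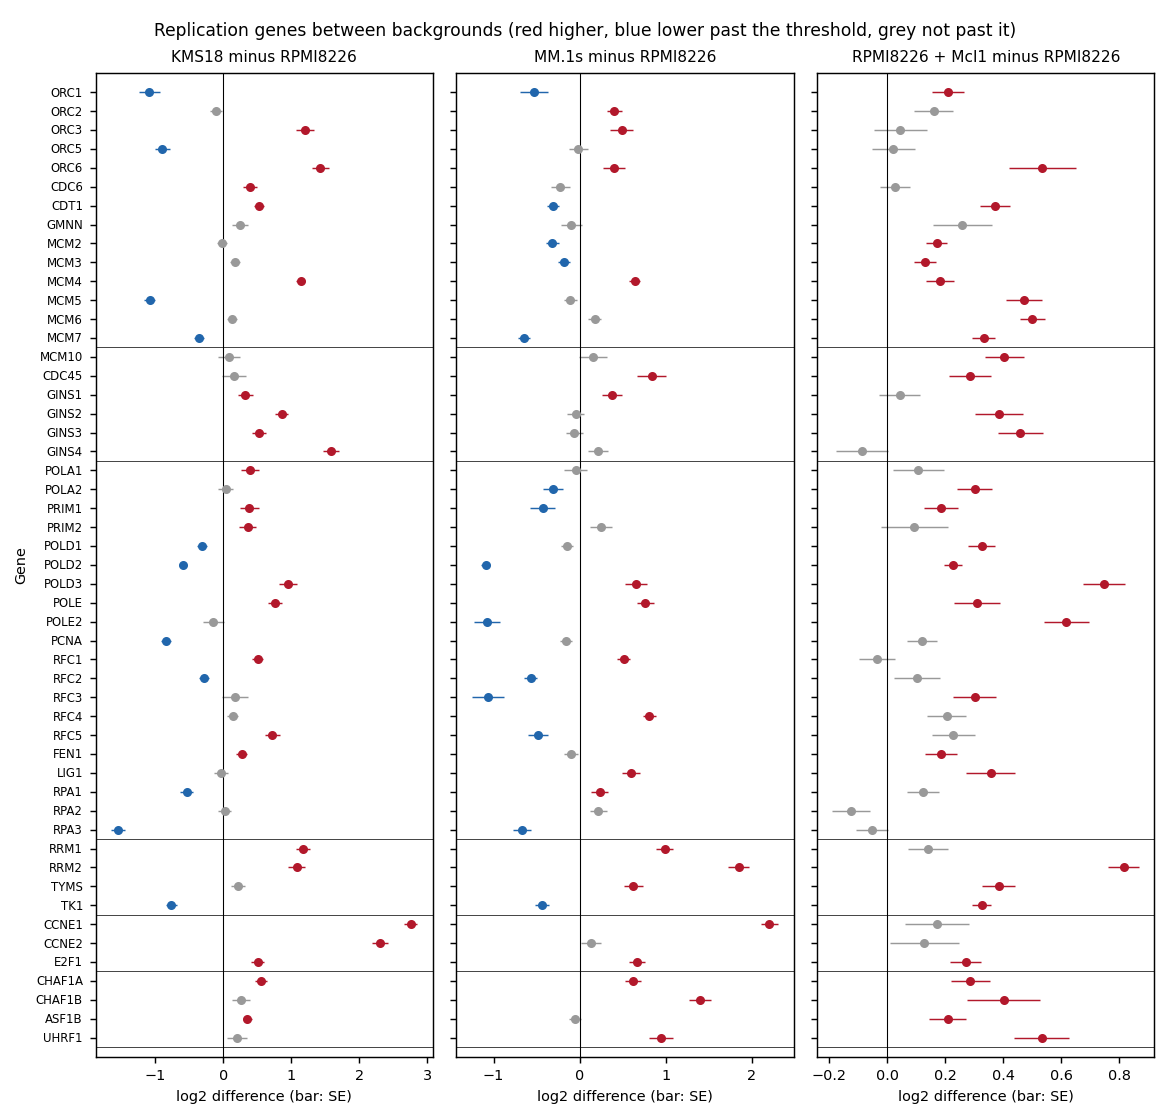
Log2(FPKM + 1) differences of the 51 genes for KMS18 and MM.1s against RPMI8226 and for RPMI8226 overexpressing Mcl1 against RPMI8226 (panels, each with its own x axis), with SE bars. Red points are higher and blue points lower past the threshold, and grey points did not pass. In the panel of the Mcl1 line 31 genes are red and 0 blue.

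Subunits of 1 complex did not keep the same ratio in all lines. MCM5 averaged 19.5 ± 1.73 FPKM in KMS18, 39.3 ± 3.74 in MM.1s and 42.5 ± 4.63 in RPMI8226, while MCM4 averaged 104 ± 10.7, 73.8 ± 9.51 and 46.9 ± 4.21. The ratio of MCM4 to MCM5 was 5.36 ± 0.483 in KMS18, 1.87 ± 0.0799 in MM.1s and 1.11 ± 0.114 in RPMI8226, with a highest value of 6.04, 1.94 and 1.23 over the shRNAs. MCM7 had the highest RNA level in FPKM of the ring subunits in every background. GINS4 averaged 26.3 ± 5.52 FPKM in KMS18, 9.45 ± 0.876 in MM.1s and 8.09 ± 1.47 in RPMI8226, and its ratio to GINS1 was 1.58 ± 0.222 in KMS18 against 0.556 ± 0.0735 and 0.62 ± 0.0738. Exons of GINS4 overlap those of an antisense gene over 21.2% of their bases, so its values may hold reads of that neighbour. RPA3, the small subunit of the single-strand binder, ran the other way with 16.3 ± 2.69 FPKM in KMS18, 30.8 ± 4.08 in MM.1s, and 49.3 ± 1.34 in RPMI8226. POLD2, an accessory subunit of polymerase delta with the highest mean of the 51 genes over all 16 libraries though not within MM.1s, averaged 141 ± 8.08, 100.3 ± 5.69 and 215 ± 6.24 FPKM in the same order. CHAF1B, a subunit of chromatin assembly factor 1, averaged 12.9 ± 2.95, 29.4 ± 4.13 and 10.6 ± 1.73.

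The shares of replication genes called between lines can be read beside those of all genes. KMS18 had 24 of 51 higher and 11 lower than RPMI8226, against 35.2% and 35.1% of all genes (70.3% in all). MM.1s had 20 higher and 14 lower than RPMI8226, against 35.9% and 33.2% (69.1% in all). KMS18 against MM.1s gave 24 higher and 15 lower, against 30.8% and 34.5% (65.3% in all). The highest of the 3 line means exceeded the lowest by more than 2-fold in 17 of 51 genes (33.3%), against 49.1% of all genes tested. In the mitosis list KMS18 had 21 of 29 lower and 0 higher than MM.1s, and MM.1s had 19 higher and 2 lower than RPMI8226.

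RPMI8226 overexpressing Mcl1 had higher replication genes than RPMI8226 itself. Of 51 genes 31 (60.8%) were higher and 0 lower, against 19.5% and 14.9% of all 11024 genes tested (34.4% in all), and 47 were above 0 with a median of 0.23. The calls came from every role, with 9 of 14 licensing, 4 of 6 helicase activation, 10 of 20 fork, 3 of 4 nucleotide supply and 4 of 4 chromatin assembly genes and E2F1. RRM2 rose most, with 74.0, 105.4, 85.9 and 90.2 FPKM in the Mcl1 line with CD28, CD86 and Gapdh shRNA and Vec, against 45.7, 61.5, 47.5 and 45.7 in RPMI8226. The Mcl1 line was higher under each shRNA with no overlap (0.82 ± 0.05 SE, limma adjusted p = 6.27e-05). MCM6 averaged 63.0 ± 6.01 FPKM in the Mcl1 line and 44.2 ± 3.498 in RPMI8226 (SD, n = 4, difference 0.50 ± 0.04, limma adjusted p = 0.00022), and POLD3 14.3 ± 1.57 and 8.12 ± 1.22 (0.75 ± 0.07, limma adjusted p = 0.000302). POLE2 averaged 10.1 ± 1.29 and 6.27 ± 0.933 FPKM (0.62 ± 0.08, limma adjusted p = 0.00104), TK1 198 ± 17.3 and 158 ± 12.04 (0.33 ± 0.03, limma adjusted p = 0.000449), and MCM5 59.2 ± 4.94 and 42.5 ± 4.63 (0.47 ± 0.06, limma adjusted p = 0.00132). CCNE1 had 3.75 ± 0.557 against 3.25 ± 0.777 FPKM and CCNE2 3.91 ± 0.730 against 3.496 ± 0.653, neither past the threshold. The median over the 51 genes was 0.21 with CD28 shRNA, 0.22 with CD86 shRNA, 0.29 with Gapdh shRNA and 0.25 with Vec. In this comparison the 4 libraries of a background are 1 line under 4 vectors, so overexpression of Mcl1 and the history of the derived line cannot be told apart. The mitosis list had 14 of 29 higher and 5 lower.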

How the data were processed

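RNA-seq was measured in 16 libraries, 1 per background and shRNA, made from RNeasy RNA by TruSeq mRNA preparation, per the labels' protocols. The authors deposited FPKM values per gene with the exon length of each gene, and log2 fold changes, likelihood ratio scores and p-values with false discovery rates for their own comparisons, per the file headers. Tools named in the submitters' processing notes are edgeR 3.12.1, TopHat2 2.0.13, R 3.2.2 and Picard. Builds named there, with no role, are mm9, hg19 and GRCh37. FPKM times exon length gave whole reads (tolerance 0.02) for 100% of values, used for depth, thinning and voom.

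Replication genes and all lists were chosen with earlier results of these data known. The 12 parental libraries were fitted with limma 3.58.1 (trend, R 4.3.3) on log2(FPKM + 1), with terms for shRNA and line, keeping the 11316 genes that averaged 1 FPKM or more (6 residual degrees of freedom). For the Mcl1 line against RPMI8226, 8 libraries were fitted with shRNA as the other term (11024 genes), and its responses as interactions over 16 (11349 genes), where its lone library per shRNA is assumed to vary like the others. P-values were two-sided, adjusted over all genes by Benjamini-Hochberg, with a threshold of 0.05. The line pairs the libraries: deviations from shRNA means correlated at 0.87 to 0.95 in the 18 pairs of 1 line. Any of the 51 genes could be named; full statistics went to up to 8 per comparison past the threshold, or to the 4 with the smallest p. Some further genes (GMNN, RFC3, POLA1, RRM2 and others that did not pass) were chosen after their values were seen. Scripts were tested on simulated data. Alternatives were another pseudocount, filters, voom, rescaling, no block, other sets of libraries, thinned reads and leaving out each line. Promoter windows came from RefSeq (GRCh38.p14), and no position was converted between builds.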

Additional observations from a re-analysis of the deposited data

Results flagged for a closer look

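In 12 of 204 groups, each the 4 libraries of 1 background for 1 replication gene, a single library lay far from the other 3, with a gap past Dixon's 95% critical value. Chance flags about 1 in 20 such groups. With CD28 shRNA in KMS18, ORC5 was low at 4.26 FPKM against 7.47 to 7.71 in the other libraries, and CDC45, the helicase activator, was low at 10.6 against 15.5 to 16.1. FEN1 was low at 99.2 FPKM with CD28 shRNA in the Mcl1 line, against 129 to 130 in the others, and CDC45 was low at 13.2 with Gapdh shRNA in the same line, against 16.6 to 16.8. With CD86 shRNA, ORC1 stood high in RPMI8226 at 29.6 FPKM against 26.1 to 26.3, POLD3 at 9.93 against 7.32 to 7.67 and RRM2 at 61.5 against 45.6 to 47.5. In the same treatment ORC6 stood high in KMS18 at 38.7 against 30.7 to 31.4, and RFC2 in MM.1s at 24.9 against 20.3 to 20.6. The Vec library stood high for POLD1 in MM.1s at 41.1 FPKM against 36.2 to 36.8, for CHAF1B in MM.1s at 35.6 against 26.9 to 27.8, and for TK1 in KMS18 at 105 against 86.9 to 89.4.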

How the results depend on the processing

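With CD28 shRNA against Vec, 6 genes passed as reported, 2 with no filter on low values, 0 without the replicate block (the term for line), 0 with only the groups compared, 12 with the Mcl1 line added to the fit, 3 with thinned reads and 0 to 2 without 1 line. With CD86 against CD28 shRNA the 6 became 2 with no filter, 0 without the replicate block, 0 with only the groups compared, 15 with the Mcl1 line added and 0 to 2 without 1 line. With CD86 shRNA against Vec the 1 became 2 with voom, 0 without the replicate block, 0 with only the groups compared, 2 with the Mcl1 line added and 0 to 0 without 1 line. Against Gapdh shRNA it became 0 with no filter, 2 with voom, 0 without the replicate block, 0 with only the groups compared, 3 with the Mcl1 line added and 0 to 0 without 1 line. With CD28 against Gapdh shRNA the 0 became 1 with voom, 4 with the Mcl1 line added and 3 with the Mcl1 line in place of RPMI8226. Thinning and this replacement were chosen after seeing the data. Here and above, counts under alternatives are given without the share of all genes called at the same setting. They do not show whether the replication genes changed apart from other genes. The Mcl1 line is derived from RPMI8226 and is no independent line, and without the term for line the spread holds the differences between lines. In the other 116 of 149 alternatives the count stayed within 1.5 times the reported one, or stayed at 0. All 149 medians shifted by less than the SD of the medians of single backgrounds or shRNAs, and their sign was not checked. Of 716 alternatives of single genes, 616 kept direction and side of the threshold, 89 fell short of it, 11 came past it and 0 reversed. In the 3 line comparisons and for the Mcl1 line no count moved by more than 1.5 times. The 12 parental libraries leave 6 residual degrees of freedom, and the Mcl1 line has 1 library per shRNA. Cell cycle phase was not measured in the data used here.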
